A study of Mus musculus with 6 samples.

Results

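The immunoglobulin variable (V) segments were taken as every gene whose symbol starts with Ighv (heavy chain), Igkv (kappa light chain) or Iglv (lambda light chain). They made up 145 of the 20394 genes, with 74 Ighv, 68 Igkv and 3 Iglv segments. RNA molecules of these genes, told apart by unique molecular identifiers (UMIs), were counted in B lineage cells, defined as cells with at least 1 UMI of Cd79a or Mzb1, which made up 6658 of 32953 cells. The cells were CD45+ cells sorted from the digested synovium of C57BL/6 mice with antigen-induced arthritis. All mice, controls included, had been immunized with 10 μg methylated BSA (mBSA) in complete Freund's adjuvant, were challenged with 100 μg mBSA in the knee on day 21 and were sampled on day 3 after the challenge. Vehicle (PBS) was given in 2 samples and the peptide PEPITEM at 300 μg in 4, and whether a sample pooled several animals is not given in the sources used here. The methods state that the mice were male and 8 weeks old when purchased.

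The barcodes carry a library number from 1 to 6 that no source used here ties to a sample, so the treatment of each library is unknown. PBS and PEPITEM were therefore not compared, no test was run, and values are pooled over cells with Wilson or, for counts, exact Poisson 95% confidence intervals, which cover counting error only. The libraries held 508 to 2290 B lineage cells and 47273569 to 123367661 UMIs, with a median of 9923 to 14001 UMIs per cell. Of the barcodes, 138 occurred in more than 1 library (276 cells), among B lineage cells 4 (8 cells). Antibody-secreting cells were those with UMIs of Mzb1, Jchain and either Sdc1 or Prdm1 (54 cells, with 4, 4, 0, 2, 19 and 25 in libraries 1 to 6). Early B cells (2801 cells) had Cd79a and a gene of V(D)J recombination or the surrogate light chain. They were split into pro-B type cells with Dntt, Igll1 or Vpreb1 (1100 cells) and pre-B type cells with only Rag1 or Rag2 (1701 cells). Cells with Ms4a1, which encodes CD20, made up 2444 of the remainder, and 1359 cells fitted no stage. Some markers outside the stage rules separated the stages and others did not. Pax5 was detected in 98.4% of early cells, 98.1% of Ms4a1 type cells and 13.0% of antibody-secreting cells, and Derl3, which acts in the secretory pathway, in 2.18%, 2.54% and 88.9%. Irf4, also listed for antibody-secreting cells, was in 68.3%, 53.7% and 70.4%, at 258, 205 and 124 UMIs per 1000000 UMIs of all genes. Cd79b, a B lineage gene, was in 98.2%, 93.9% and 87.0%. Ms4a1 was in 20 of the 54 antibody-secreting cells (37.0%), against 16.6% of early B cells. Some antibody-secreting cells held little antibody RNA. A cell of library 5 had 32 UMIs of Ighm (heavy constant gene of IgM) and 0 of Igkc (kappa constant gene), and 1 of library 6 had 20 and 3. All 54 were kept in the shares given below. Genes of other lineages were also found in antibody-secreting cells. Of the 4 T cell genes, Cd3e was at 0, Trac was in 5 of the 54 cells, Cd3d in 3 and Cd3g in 1, and their summed level was 5.74 UMIs per 1000000 UMIs of all genes (CPM) against 5.35 CPM in early B cells. The summed level of 5 neutrophil genes was 41819 CPM against 9086 in early B and 33206 in Ms4a1 type cells. Lyz2, a myeloid gene, was in 28 of the 54 cells. Of the 4 plasmacytoid dendritic cell genes, Bst2 was in 42 cells, Ccr9 in 8, and Siglech and Klk1 in 0. Bst2 stood at 130 CPM there, against 146 CPM in cells without a B marker. A UMI of Cd3e, Ly6g, Csf1r or Siglech, or more than 1 UMI of S100a8, was found in 27 of the 54 cells. The same 5 markers, by the same limits, were found in 17.5% of all B lineage cells. Among the 1359 cells that fitted no stage they were in 46.6%, with Siglech in 260, and 987 of these cells had Cd79a. The part of this RNA in the results was not tested.

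An antibody chain is assembled during B cell development from separate gene segments. The RAG enzymes, encoded by Rag1 and Rag2, join a V segment to D and J segments for the heavy chain in pro-B cells, where the enzyme encoded by Dntt adds bases at the joins, and to a J segment for the kappa or lambda light chain in pre-B cells. The surrogate light chain of Igll1 and Vpreb1 stands in until a light chain is made, and a mature B cell or a plasma cell usually carries 1 productive heavy and 1 productive light chain. The V segment lies at the 5′ end of the spliced transcript, whereas the libraries read its 3′ end, next to the constant segment.

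The V segments lie in 3 loci. In GENCODE annotation vM21 of GRCm38 (the genome known as mm10), the 74 Ighv genes of the data span chr12:113578504-116000461, the 68 Igkv genes chr6:67555497-70704177 and the 3 Iglv genes chr16:19085017-19260859. The annotation calls 70, 62 and 3 of them functional and 10 pseudogenes. It holds 113 functional Ighv and 100 functional Igkv genes in all, and those without counts at hand were not analysed here. The transcripts of all 145 were matched by symbol. The 10 segments of the 5 combinations found in 3 antibody-secreting cells each are represented here by the last 90 germline bases of the V exon, each heavy segment followed by its kappa partner. Capitals mark the codon of the conserved second cysteine, which stands at the edge of the antigen-binding loop that is completed by joining. All germline sequences are written 5′ to 3′ from the GENCODE transcripts.
Ighv11-2: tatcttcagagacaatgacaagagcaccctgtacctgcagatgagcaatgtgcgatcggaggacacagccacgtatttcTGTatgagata
Igkv14-126: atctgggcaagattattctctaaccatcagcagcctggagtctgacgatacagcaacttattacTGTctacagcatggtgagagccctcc
Ighv1-26: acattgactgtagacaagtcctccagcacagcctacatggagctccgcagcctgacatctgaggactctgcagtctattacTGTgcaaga
Igkv12-46: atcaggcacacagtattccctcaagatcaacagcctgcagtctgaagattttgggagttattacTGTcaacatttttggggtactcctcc
Ighv1-77: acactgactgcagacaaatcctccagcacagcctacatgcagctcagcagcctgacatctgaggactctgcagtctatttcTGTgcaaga
Igkv4-72: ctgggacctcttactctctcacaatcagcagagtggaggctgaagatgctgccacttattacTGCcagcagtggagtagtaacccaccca
Ighv1-80: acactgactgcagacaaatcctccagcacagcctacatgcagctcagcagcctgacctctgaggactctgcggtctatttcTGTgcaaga
Igkv4-55: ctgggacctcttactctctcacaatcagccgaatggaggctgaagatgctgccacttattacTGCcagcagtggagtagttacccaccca
Ighv9-3: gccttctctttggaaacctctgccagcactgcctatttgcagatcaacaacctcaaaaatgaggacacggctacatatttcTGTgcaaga
Igkv19-93: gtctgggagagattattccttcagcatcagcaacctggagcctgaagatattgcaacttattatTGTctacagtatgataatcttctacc

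Ighv14-2 (chr12:113994469-113994898, minus strand) is shown for its place in pro-B type cells, again with the cysteine codon in capitals. In its relatives, capitals mark the bases that differ from Ighv14-2. Over the last 300 bases, Ighv14-1 was 97.0% identical to Ighv14-2, and Ighv14-3 and Ighv14-4 were 95.7% identical each.
Ighv14-2: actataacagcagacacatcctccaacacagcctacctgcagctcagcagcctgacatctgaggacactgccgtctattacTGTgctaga
Ighv14-1: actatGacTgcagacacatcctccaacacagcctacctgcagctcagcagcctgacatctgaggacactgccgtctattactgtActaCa
Ighv14-3: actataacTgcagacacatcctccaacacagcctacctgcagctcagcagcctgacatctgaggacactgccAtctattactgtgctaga
Ighv14-4: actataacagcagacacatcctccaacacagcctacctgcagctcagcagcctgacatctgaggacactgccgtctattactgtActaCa

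The 4 segments of family Igkv1 that led the most cells are shown because their use differed between stages. Capitals mark the bases that differ from Igkv1-117 (chr6:68121046-68121827, plus strand). Igkv1-110 was 96.7% identical to it, Igkv1-135 80.7% and Igkv1-35 77.7%.
Igkv1-117: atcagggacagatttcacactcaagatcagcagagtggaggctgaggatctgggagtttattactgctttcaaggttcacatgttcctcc
Igkv1-110: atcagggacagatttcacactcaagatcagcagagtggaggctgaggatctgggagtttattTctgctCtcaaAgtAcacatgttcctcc
Igkv1-135: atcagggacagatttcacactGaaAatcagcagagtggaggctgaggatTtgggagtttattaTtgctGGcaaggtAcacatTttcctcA
Igkv1-35: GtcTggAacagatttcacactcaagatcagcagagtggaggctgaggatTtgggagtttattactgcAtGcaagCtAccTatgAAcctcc

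Iglv2 (chr16:19260401-19260859) was 97.3% identical to Iglv1 (chr16:19085017-19085500), and capitals mark the bases of Iglv2 that differ. These lambda genes are shown as close relatives between which a short read has to choose.
Iglv1: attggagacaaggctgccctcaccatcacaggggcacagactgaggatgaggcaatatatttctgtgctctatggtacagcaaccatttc
Iglv2: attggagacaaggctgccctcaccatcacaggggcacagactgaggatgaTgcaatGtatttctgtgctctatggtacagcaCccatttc
Among all annotated V transcripts, the nearest relative of an Ighv gene was identical to it at a median of 95.3% of the last 300 bases, and that of an Igkv gene at 94.8%. Every V gene of the data had 90-base windows found in no other annotated V transcript, and such windows made up a median of 100% of an Ighv or Igkv transcript and 95.03% of an Iglv transcript. The closest pairs in the data were nearer still, with Ighv1-62-3 and Ighv1-72 identical at 99.0% and Igkv6-20 and Igkv6-29 at 98.3%, where unique windows made up 42.7% of both Igkv transcripts. How the authors' counting treated reads that match several V genes is not given in the sources used here. Reads of Iglv1 and of 2010309G21Rik, which overlaps it on the opposite strand, can only be told apart by strand, and the same holds for overlaps of Igkv2-137, Ighv1-2 and Ighv1-5 with other genes.

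All 145 V genes were detected in B lineage cells, in 2 to 548 cells each with a median of 17, and 53 of them in fewer than 10 cells. The 12207 V UMIs were 2071 of Ighv, 7943 of Igkv and 2193 of Iglv genes, and 78.8% of the nonzero counts per gene and cell were a single UMI. An Ighv UMI was found in 15.3% of B lineage cells (interval 14.4% to 16.1%; lowest, median and highest library 10.7%, 14.6% and 20.6%). A light chain V UMI, Igkv or Iglv, was found in 43.2% (42.0% to 44.4%). Cells with the T cell gene Cd3e and no B lineage marker gave the background used here. It was not the highest one for heavy chain segments. An Ighv UMI was found in 3.03% of Ly6g-positive cells without a B marker and in 1.635% of all cells without a B marker. Of the 1100 Cd3e-positive cells, with a median of 10064 UMIs against 6249 in B lineage cells, 3 (0.273%) had an Ighv UMI and 3 (0.273%) an Igkv UMI. An Iglv UMI was found in 0 of them, which allows a share of up to 0.273%.

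Heavy chain segments were detected more often in pro-B type than in pre-B type cells, and light chain segments more often in pre-B type cells. In pro-B type cells, an Ighv UMI was found in 22.6% (20.3% to 25.2%), an Igkv UMI in 28.1% and an Iglv UMI in 3.73%. In pre-B type cells, Ighv detection was 11.9% (10.4% to 13.5%), Igkv detection was 53.2% (50.8% to 55.5%) and Iglv detection was 16.7%. The Igkv share was higher in pre-B type than in pro-B type cells in each of the 6 libraries, where it ranged from 37.2% to 67.6% and from 14.9% to 34.6%. Library 3, with 52 pro-B type cells, had the lowest Ighv share in that stage, 5.77%, while the other libraries lay between 21.4% and 30.9%. In library 3 the Ighv share was higher in pre-B type cells, at 9.80%, and in the other 5 libraries it was higher in pro-B type cells. Ms4a1 type cells lay between these stages for Igkv, with 16.7% for Ighv, 40.3% for Igkv and 11.8% for Iglv. In antibody-secreting cells all classes were frequent, with 81.5% (69.2% to 89.6%) for Ighv, 92.6% (82.4% to 97.1%) for Igkv and 85.2% for Iglv.

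**Figure D1:**
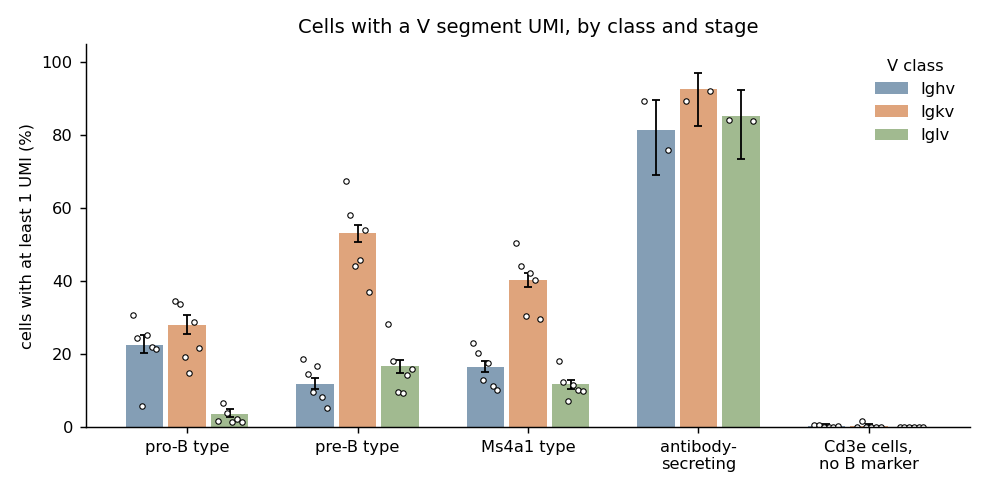
Share of cells with at least 1 UMI of an Ighv, Igkv or Iglv segment (y axis, percent) in 4 B lineage stages and in Cd3e cells without a B marker (x axis). Bars are pooled values with Wilson 95% intervals and points are libraries with at least 10 cells of the stage. Igkv was found in 28.1% of pro-B type and 53.2% of pre-B type cells, antibody-secreting cells stood at 81.5% to 92.6%, and Cd3e cells stayed at or below 0.273%.

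Depth differed between the stages, with medians of 9422 UMIs per cell in pro-B type, 5382 in pre-B type, 5859 in Ms4a1 type and 33872 in antibody-secreting cells. After every cell had been thinned to 3000 UMIs, which left out 18, 52, 57 and 1 cells, the Ighv share was 9.61% in pro-B type, 6.25% in pre-B type, 8.29% in Ms4a1 type and 56.6% in antibody-secreting cells. The Igkv share was 13.4%, 36.2%, 25.1% and 84.9% in the same order. The order of the stages for both classes was the same with and without thinning.

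Relative to all RNA, V transcripts were most abundant in antibody-secreting cells, the makers of secreted antibody. Ighv UMIs stood at 23.9 CPM in early B cells (22.03 to 25.8, libraries 10.6 to 38.9) and 437 CPM in antibody-secreting cells (407 to 469), a ratio of 18.3 (16.5 to 20.4). The 2 libraries with at least 10 antibody-secreting cells had 283 and 654 CPM, both above every library of early B cells. For Igkv, the levels were 110 CPM in early B cells and 1342 CPM in antibody-secreting cells (ratio 12.2, 11.5 to 12.8). For Iglv, they were 16.7 and 610 CPM, of which 1 cell of library 1 held 433 of 1062 UMIs, and without it the level in antibody-secreting cells was 369.5 CPM. Read against the constant genes, the order was different. Pre-B type cells had 7.41 Igkv UMIs per 100 UMIs of Igkc, the kappa constant gene (libraries 4.99 to 10.4), and pro-B type cells had 6.91. Ms4a1 type cells had 1.95 (libraries 1.56 to 2.22) and antibody-secreting cells 0.579. Every library of early B cells, at 4.66 to 9.77, was thus above every library of Ms4a1 type cells. Ighv UMIs per 100 UMIs of the heavy constant genes covered a narrower range, with 1.52 in pro-B type, 0.513 in pre-B type, 0.883 in Ms4a1 type and 0.453 in antibody-secreting cells. Ighv14-2 held 141 of the 625 Ighv UMIs of early B cells, and its part in the pro-B type value was not tested. Cells with Igkv but without any Igkc UMI were found too. Among cells with Igkc at 0, 106 of 234 pre-B type cells (45.3%, 39.0% to 51.7%) had an Igkv UMI, against 46 of 484 pro-B type cells (9.50%, 7.20% to 12.4%).

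Many cells with an Igkv UMI showed several kappa segments. Before thinning, several heavy segments were seen most often in pro-B type cells, by number and by share. A single Ighv gene was found in 92.4% of the Ighv-positive B lineage cells and a single Igkv gene in 63.6% of the Igkv-positive ones, but the median positive cell had 1 UMI of the class and could show no more than 1 gene. Of the 243 cells with at least 2 Ighv UMIs, 166 (68.3%, 62.2% to 73.8%) had all of them in 1 gene, and of the 1252 cells with at least 2 Igkv UMIs, 313 (25%, 22.7% to 27.5%) did. By stage, at least 2 Igkv genes were detected in 415 of 904 Igkv-positive pre-B type cells (45.9%, 42.7% to 49.2%), in 39.8% of pro-B type, 28.0% of Ms4a1 type (25.2% to 30.8%) and 18 of 50 antibody-secreting cells. These shares moved with depth. After thinning to 3000 UMIs they were 32.2% in pre-B type (28.5% to 36.01%), 23.4% in pro-B type, 19.8% in Ms4a1 type (16.8% to 23.2%) and 11.1% in antibody-secreting cells (5 of 45, 4.84% to 23.5%), so that antibody-secreting cells passed from above to below Ms4a1 type cells. The most Igkv genes in 1 cell were 11, in a pre-B type cell. At least 2 heavy segments were found in 50 of 249 Ighv-positive pro-B type cells (20.1%, 15.6% to 25.5%), 7 of 44 antibody-secreting cells (15.9%, 7.93% to 29.4%), 5 of 202 pre-B type cells (2.48%) and 11 of 407 Ms4a1 type cells (2.70%). After thinning they remained in 4 of 104, 2 of 30, 1 of 103 and 2 of 198 cells, with intervals that overlapped. Among cells with at least 2 Ighv UMIs, all were in 1 gene in 27 of 77 pro-B type cells (35.1%, 25.4% to 46.2%), 25 of 30 pre-B type cells, 65 of 76 Ms4a1 type cells (85.5%, 75.9% to 91.7%) and 35 of 42 antibody-secreting cells. The genes found together most often in pre-B type cells were Igkv1-117 and Igkv1-110, the 2 most used kappa segments and close relatives in sequence, in 59 cells of 246 and 220 with each. In antibody-secreting cells with at least 3 UMIs of a class, the leading gene held a median of 100% of the UMIs of that class, for Ighv (42 cells) and for Igkv (46 cells) alike.

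**Figure D2:**
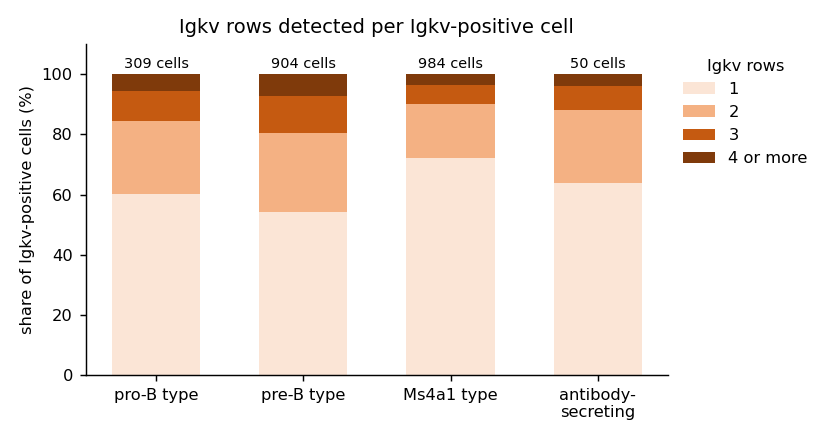
Number of Igkv genes detected per Igkv-positive cell (color) as a share of these cells (y axis, percent) in 4 B lineage stages (x axis, with the number of cells). At least 2 genes were found in 45.9% of pre-B type and 28.0% of Ms4a1 type cells.

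Usage was then measured by the gene with the most UMIs of its class in a cell, with ties left out. It describes detected V RNA. Whether this RNA came from joined or unjoined segments was not tested, so the shares of early B cells are not a count of joined segments. An Ighv gene led in 974 cells (42 cells tied), an Igkv gene in 2031 (551 tied) and an Iglv gene in 710 (35 tied). Heavy chain usage was spread widely over B lineage cells, with the 8 most used genes leading 32.9% of the Ighv-led cells, while the 8 most used Igkv genes led 59.8%. The leading heavy genes were Ighv14-2 (73 cells, 7.49%), Ighv3-6 (40 cells), Ighv6-3 (38), Ighv1-81 and Ighv1-82 (36 each), Ighv9-3 (34), Ighv1-26 (33) and Ighv1-64 (30). The most used heavy gene was Ighv14-2 in libraries 2, 5 and 6, Ighv1-64 in library 1 (10 of 137 cells), Ighv3-6 in library 3 (7 of 63) and Ighv1-81 in library 4 (7 of 82). Signal of Ighv1-64 was not confined to the B lineage, with 33 B lineage cells and 65 cells without a B marker. In library 1 it was in 1.675% of the Ly6g-positive cells without a B marker. The part of this signal in its rank was not tested. The 10 pseudogenes led 46 cells in all and were detected in 3 to 33 B lineage cells each.

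The use of Ighv14-2 was concentrated in pro-B type cells. It led 69 of 222 Ighv-led pro-B type cells (31.1%, 25.4% to 37.4%), 2 of 197 pre-B type cells, 1 of 398 Ms4a1 type cells (0.251%) and 0 of 44 antibody-secreting cells, which allows a share of up to 6.82%. By library, it led 6 of 16 pro-B type cells in library 1, 27 of 89 in library 2, 0 of 3 in library 3, 6 of 15 in library 4, 10 of 52 in library 5 and 20 of 47 in library 6. It was the most frequent leader in pro-B type cells by a wide margin, since the next genes were Ighv1-23 with 10 cells (4.50%) and Ighv14-1 with 9 (4.05%). Of the 96 cells with any Ighv14-2 UMI, 94 were early B cells and 1 was of the Ms4a1 type. Where at least 2 UMIs of a gene were asked for, it led 56.0% of the pro-B type cells that still had a leading Ighv gene. Under that rule only 75 early B cells had one. The whole family Ighv14 led 84 of 222 pro-B type cells (37.8%) and 5 of 197 pre-B type cells (2.54%), so the relatives with nearly the same sequence added 15 and 3 cells. In pre-B type cells no heavy gene stood out, with Ighv5-4 and Ighv6-3 leading 9 cells each (4.57%). Ms4a1 type cells were led most often by Ighv3-6 (20 of 398, 5.03%), Ighv1-82 (19) and Ighv6-3 (18).

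**Figure D3:**
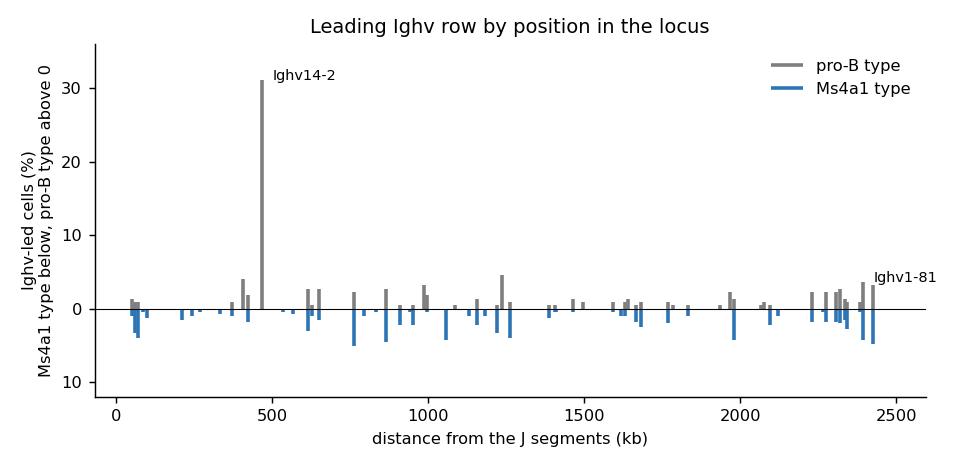
Share of Ighv-led cells (y axis, percent) led by each of the 74 Ighv genes at its distance from the D segments (x axis, kilobases). The axis label names the J segments, but the distance was measured from the D segments. Pro-B type cells are drawn upward and Ms4a1 type cells downward from 0. Ighv14-2, at 468 kilobases, led 31.1% of the pro-B type and 0.251% of the Ms4a1 type cells.

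Position in the heavy chain locus was compared between stages because V genes near the D segments are known to be joined often in early development. The 25 Ighv genes nearest to the D segments led 49.1% of the pro-B type (42.6% to 55.6%), 35.0% of the pre-B type, 30.9% of the Ms4a1 type (26.6% to 35.6%) and 29.5% of the antibody-secreting cells (13 of 44, 18.2% to 44.2%). The excess in pro-B type cells rested on Ighv14-2, which is among the 25. Without the cells that it led, the share was 26.1% in pro-B type (40 of 153 cells, 19.8% to 33.6%), 34.4% in pre-B type and 30.7% in Ms4a1 type cells. The 3 genes nearest to the D segments were used little. Ighv5-2 (51.7 kilobases from the D segments), known for frequent joining in early B cell development, led 3 of 222 pro-B type cells, and Ighv2-2 and Ighv5-4 led 2 each. In Ms4a1 type cells these 3 genes led 4, 13 and 16 of 398 cells.

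By the share of cells led, family Igkv1 dominated the kappa RNA of early cells and less so that of later stages. Igkv1-117 led 284 of 2031 B lineage cells (13.98%, 12.5% to 15.6%), Igkv1-110 led 271 (13.3%), Igkv1-135 164, Igkv1-35 143, Igkv12-46 120, Igkv19-93 103, Igkv2-109 69 and Igkv12-89 61. Either Igkv1-117 or Igkv1-110 was the most used kappa gene of each library. Family Igkv1 as a whole led 55.5% of early B cells, 32.3% of Ms4a1 type cells and 10.2% of antibody-secreting cells (5 of 49). Igkv1-117 led 17.2% of early B (14.9% to 19.8%), 11.5% of Ms4a1 type (9.49% to 13.9%) and 6.12% of antibody-secreting cells (3 of 49). Igkv1-110 led 15.2%, 10.8% and 4.08%, and Igkv1-135 8.95%, 6.81% and 0 of 49 cells, which allows up to 6.12%.

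Igkv1-35 (chr6:70010949-70011673, minus strand) differed most between early and Ms4a1 type cells among the kappa genes that led at least 20 cells. It led 107 of 905 early B cells (11.8%, 9.88% to 14.1%), 9 of 808 Ms4a1 type cells (1.11%, 0.587% to 2.10%) and 0 of 49 antibody-secreting cells. In early B cells it led 11 of 82 cells in library 1, 31 of 384 in library 2, 10 of 48 in library 3, 2 of 46 in library 4, 31 of 223 in library 5 and 22 of 122 in library 6. The shares of early B cells by library, from 4.35% to 20.8%, were all above those of Ms4a1 type cells, from 0.664% to 2.50%. Since the gene was picked for its difference between these stages, this separation is a description and adds no support. How many other kappa genes separate in this way was not counted. Of 281 cells with an Igkv1-35 UMI, 210 were early B cells. Unlike Ighv14-2, it was used alike in pro-B type (30 of 239, 12.6%) and pre-B type cells (77 of 666, 11.6%).

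**Figure D4:**
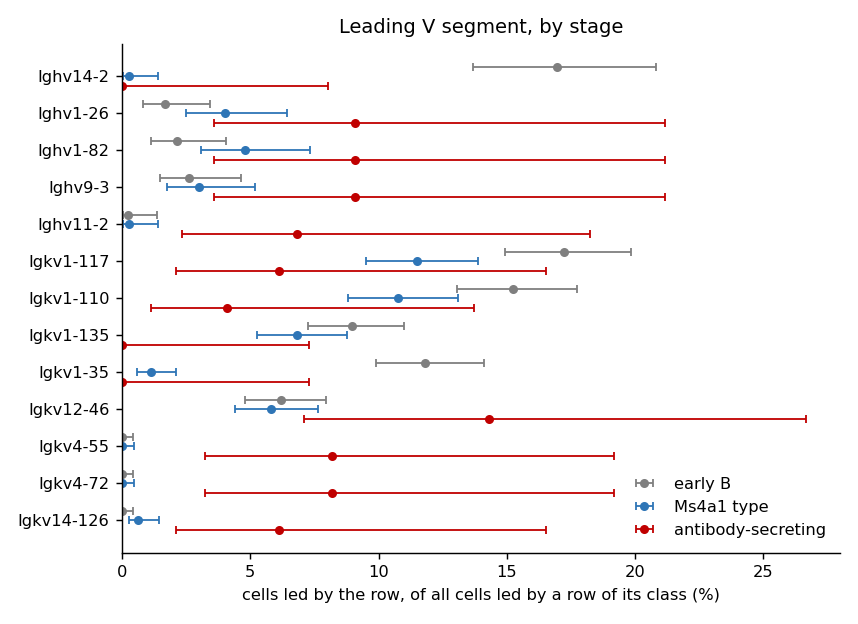
Share of cells led by a V gene, of all cells led by a gene of its class (x axis, percent), for 13 genes (y axis) in early B, Ms4a1 type and antibody-secreting cells (color). Points are pooled shares and bars Wilson 95% intervals. Ighv14-2 (17.0%) and Igkv1-35 (11.8%) were used by early B cells and rarely by Ms4a1 type cells, whereas Igkv12-46 led 14.3% of the antibody-secreting cells.

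Lambda segments were led by Iglv1, with 434 of 710 cells (61.1%, 57.5% to 64.6%), followed by Iglv3 with 241 (33.9%) and Iglv2 with 35 (4.93%). Iglv1 was the first in every library, with 54.1% to 67.9% of the cells. It led 65.7% of early B (60.2% to 70.8%), 51.4% of Ms4a1 type (45.6% to 57.3%) and 80.0% of antibody-secreting cells (36 of 45). Iglv3 led 30.4%, 41.7% and 17.8%. When Igkv and Iglv genes were ranked together, a lambda gene led 13.8% of the light chain-led B lineage cells (12.5% to 15.2%, libraries 10.1% to 19.9%). This share was 4.93% in pro-B type, 13.9% in pre-B type, 16.2% in Ms4a1 type and 19.6% in antibody-secreting cells (10 of 51). Both a kappa and a lambda V segment were found in 18.9% of pre-B type and 12.7% of Ms4a1 type cells that had either, but in 44 of 52 antibody-secreting cells (84.6%). These shares are at full depth, with medians of 5382, 5859 and 33872 UMIs per cell in the 3 stages. After thinning to 3000 UMIs, an Iglv UMI was left in 10.2%, 6.54% and 50.9% (27 of 53) of cells. Cells with both classes were not counted again. Among the antibody-secreting cells, Iglv1 was present in 39 of 54, and Igkc exceeded the sum of the lambda constant genes in 53 of 54. The 54 cells held 14.6 Iglv UMIs per 100 UMIs of the lambda constant genes Iglc1 to Iglc4, against 0.886 in Ms4a1 type cells. The value was 8.70 without the 1 cell of library 1 named above, which had 425 UMIs of Iglv1, 13228 of Igkc and 47, 10 and 8 of Iglc1, Iglc2 and Iglc3.

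Antibody-secreting cells were compared with early B cells gene by gene in CPM after adding 1, over the 14426 genes of the data with at least 10 UMIs in both stages together, of which 82 were V genes. At least 2-fold higher in antibody-secreting cells were 51 of the 82 V genes, among them 22 Ighv, 26 Igkv and all 3 Iglv, against a background of 7.11% of all genes tested. Of these 51, 24 had fewer than 10 UMIs in early B cells and 3 had none there, so they entered the comparison through antibody-secreting cells and could not have been called lower. The count is therefore a description and is not read against the background. At least 2-fold lower were 9 of the 82, namely Ighv14-2, Igkv1-35, Igkv1-122, Igkv1-135, Igkv1-88, Igkv2-112, Igkv6-20, Igkv6-29 and Igkv9-129, against 42.5% of all genes, and all 9 entered through early B cells. When the same direction was also asked for in each of the 5 libraries with both stages, Iglv1 was the only V gene that was higher (background 1.57%), and Ighv14-2, Igkv1-35, Igkv1-135, Igkv1-88, Igkv6-20 and Igkv9-129 were lower (background 31.3%). This rule rests on few cells, since 3 of those libraries had 4 antibody-secreting cells or fewer, in which most V genes were absent.

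Iglv1 stood at 18.7, 12.8, 7.03, 10.1 and 6.13 CPM in the early B cells of libraries 1, 2, 4, 5 and 6, and at 3441, 264, 173, 273 and 422 in their antibody-secreting cells. Iglv1 was picked for being higher in each of these libraries, so the separation of the values is a description. Libraries 1, 2 and 4 held 4, 4 and 2 antibody-secreting cells. All 9 lower genes had 0 UMIs among the 1741039 UMIs of antibody-secreting cells, where 3 UMIs would be 1.72 CPM. In early B cells, Igkv1-35 (12.9 CPM), Igkv1-135 (9.70 CPM), Ighv14-2 (5.38 CPM), Igkv9-129 (2.18 CPM) and Igkv1-122 (2.14 CPM) stood above that value. The other 4 genes stood below it in early B cells too. That value counts UMIs as separate draws, but they came from 54 cells. In 1 of these cells the leading kappa gene held 167 UMIs. By cells, 0 of 49 Igkv-led and 0 of 44 Ighv-led cells allow shares of up to 6.12% and 6.82%. No smallest fold is therefore given. By usage, the heavy genes with the largest positive difference of antibody-secreting from early B cells, among genes leading at least 20 cells, were Ighv1-26 and Ighv1-82 (1.67% and 2.15% of early B against 9.09% of antibody-secreting cells each, 4 of 44), Ighv9-3 (2.63% against 9.09%) and Ighv1-9 (0.955% against 6.82%). The intervals of the antibody-secreting shares were wide, from 3.59% to 21.2% for 4 of 44 cells. The heavy genes with the largest negative difference after Ighv14-2 were Ighv1-81, Ighv5-4 and Ighv2-2, with 3.82%, 2.63% and 2.39% of early B against 0 of 44 antibody-secreting cells, within what this number of cells allows. Of the kappa genes, Igkv12-46 led 6.19% of early B (56 of 905) and 14.3% of antibody-secreting cells (7 of 49, 7.10% to 26.7%), Igkv10-96 0.552% and 4.08%, Igkv17-127 0.110% and 2.04%, and Igkv12-89 2.43% and 4.08%. Family Igkv4 led 9 of 49 antibody-secreting cells (18.4%), 7 of 808 Ms4a1 type cells (0.866%) and no early B cell. Many of these antibody-secreting cells shared a heavy and kappa combination within 1 library, while the intervals count each cell separately. Of the 7 Igkv12-46 cells, 3 had Ighv1-26 (library 6) and 2 had Ighv1-9 (library 5). Igkv4 included 3 cells of Ighv1-77 with Igkv4-72 (library 6) and 3 of Ighv1-80 with Igkv4-55 (library 5). Ighv9-3 had 3 of its 4 cells with Igkv19-93 (library 5).

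The same heavy and kappa segments recurred together in antibody-secreting cells. Of the 54 cells, 42 had a leading Ighv and a leading Igkv gene, in 30 combinations. Of these combinations, 7 were found in more than 1 cell and held 19 of the 42 cells (45.2%, 31.2% to 60.05%). The interval treats cells as independent, although a repeated combination takes 2 or 3 cells at once. In early B cells, repeated combinations held 21 of 137 cells (15.3%), and in Ms4a1 type cells 23 of 144 (16.0%). Such shares depend on the number of cells, so they are set side by side as a description. Whether cells of 1 combination belong to 1 clone was not tested, since V genes without the sequence of the join do not define one. The combinations of 3 cells each were Ighv1-26 with Igkv12-46 and Ighv1-77 with Igkv4-72, both in library 6, Ighv1-80 with Igkv4-55 and Ighv9-3 with Igkv19-93, both in library 5, and Ighv11-2 with Igkv14-126 in libraries 1 and 6. Those of 2 cells were Ighv1-82 with Igkv12-89 in library 6 and Ighv1-9 with Igkv12-46 in library 5. All 7 combinations had the same leading heavy constant gene in each of their cells, Igha (IgA) for Ighv1-82 with Igkv12-89 and Ighm (IgM) for the other 6, and 6 of the 7 came from a single library. Over all 54 cells, Ighm led in 38, Igha in 13 and Ighg2b in 3. Ighg1 and Ighe are not among the genes of the data, so a cell of either class could not be recognized.

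**Figure D5:**
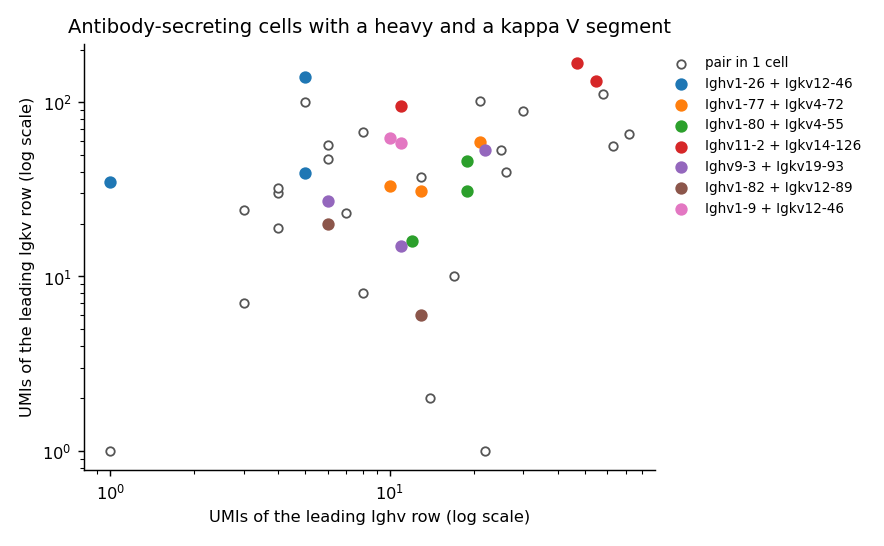
UMIs of the leading Ighv gene (x axis, log scale) and of the leading Igkv gene (y axis, log scale) in the 42 antibody-secreting cells with both. Colored points are the 7 combinations found in more than 1 cell, open points those found once. The 3 cells with Ighv11-2 and Igkv14-126 had 11 to 55 and 95 to 167 UMIs.

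The combination of Ighv11-2 and Igkv14-126 is known from B-1a cells, a population of innate-like B cells, where it forms antibodies to phosphatidylcholine. The cell of library 1 had 47 UMIs of Ighv11-2, 167 of Igkv14-126 and 4501 of Ighm. The 2 cells of library 6 had 11 and 55 UMIs of Ighv11-2, 95 and 133 of Igkv14-126 and 5522 and 4059 of Ighm. These 3 cells held 113 of the 116 Ighv11-2 UMIs and 395 of the 407 Igkv14-126 UMIs of all B lineage cells, and no early B or Ms4a1 type cell had both genes leading. Of the other combinations, Ighv1-26 with Igkv12-46 had 1 to 5 and 35 to 140 UMIs, Ighv1-77 with Igkv4-72 10 to 21 and 31 to 59, Ighv1-80 with Igkv4-55 12 to 19 and 16 to 46, and Ighv9-3 with Igkv19-93 6 to 22 and 15 to 53. With the 27 cells left out that had Cd3e, Ly6g, Csf1r, Siglech or more than 1 UMI of S100a8, 7 of 20 cells (35.0%) were in a repeated combination. Without library 6 the share was 8 of 24 cells (33.3%), and without library 5 it was 11 of 26 (42.3%).

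The constant genes and the factors of the pathway set the frame for these values. Ighm was at 2640 CPM in early B, 2786 in Ms4a1 type and 67368 in antibody-secreting cells, Ighd at 68.1, 270 and 14.9, Igkc at 1514, 5177 and 231717, and Igha at 0.802, 2.15 and 26158. Ighg2b stood at 13.2, 44.1 and 2867 CPM and was found in 89 pro-B type cells (8.09%), against 7 pre-B type cells (0.411%). The UMIs of Igkc alone made up a median of 24.1% of an antibody-secreting cell. Vpreb3, which is outside the stage rules, was at 2036 CPM in early B and 583 in Ms4a1 type cells. Vpreb2, a further surrogate light chain gene, was at 82.0 in pro-B type and 0.0832 in pre-B type cells. The pre-B type rule left out every cell with Igll1 or Vpreb1, so this difference is not independent of the rule. Of the factors that act at the octamer motif of V promoters, the coactivator gene Pou2af1 was at 529, 364 and 241 CPM in early B, Ms4a1 type and antibody-secreting cells, Pou2f2 (Oct-2) at 115, 312 and 91.3, and Pou2f1 (Oct-1) at 182, 138 and 78.1.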

How the data were processed

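Single-cell 3′ RNA-sequencing of CD45+ synovial cells was analysed for 6 samples (2 PBS, 4 PEPITEM). The authors deposited 1 table of UMI counts for 20394 genes and 32953 cells, made with Cell Ranger (version 7 per the labels, mm10). The paper states that ambient RNA was removed by SoupX and doublets by DoubletFinder, and that cells were filtered with Seurat. Whether the counts are those before or after removal of ambient RNA was not tested. The background in Cd3e-positive cells may thus be what remained after it. The 1724738 entries stored as 0 were read as 0, and no doublets were called again. The number of unmapped sample columns was 0, but library numbers could not be tied to samples, so the comparison of treatments was not run.

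Cells were staged by the UMI rules given with the results. Usage was the share of cells led by a gene (most UMIs of its class, ties left out). Early B and antibody-secreting cells were compared in CPM with 1 added, for genes with at least 10 UMIs, and called at 2-fold. Cells were thinned to 3000 UMIs with seed 1. V sequences came from GENCODE vM21 transcripts, aligned with edlib 1.3.9.post1. The scripts ran in Python 3.11.15 with pandas 2.3.3, scipy 1.17.1, matplotlib 3.10.9 and numpy 2.4.6, and the fold script was tested on simulated data. Motifs in V promoters and recombination signals were not analysed here.

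Named genes were the 8 Ighv, 8 Igkv and the Iglv genes leading the most cells, the 3 leaders per stage, the leader per library, the 4 largest rises and falls, the 3 Ighv genes nearest to D, constant, recombination and octamer factor genes. Called genes, genes of repeated combinations, relatives shown by sequence and further leaders were named after their values were seen. The members and lists were chosen with earlier results of these data known. Alternatives changed the B cell rule, the UMI minimum, depth, libraries, stored zeros, stage rules and the part of the locus.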

Additional observations from a re-analysis of the deposited data

Results flagged for a closer look

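Signal of 5 heavy chain V genes appeared outside the B lineage, in Ly6g-positive cells (neutrophils) without Cd79a or Mzb1, above the share that 3 counts would give among the 1100 Cd3e-positive cells (0.273%). Ighv1-41 was found in 0.690% of the 10149 Ly6g-positive cells, Ighv1-64 in 0.552%, Ighv8-10 in 0.493%, Ighv1-63 in 0.453% and Ighv1-73 in 0.315%. The annotation calls Ighv1-41, Ighv8-10 and Ighv1-73 pseudogenes. Ighv1-41 was present in 101 cells without a B marker and in 8 B lineage cells, and Ighv8-10 in 56 and 3. In Ly6g-positive cells, Ighv1-41 ranged from 0% to 1.05% over the libraries, and Ighv8-10 was found in each library, at 0.338% to 0.838%. All Ighv genes together were found in 3.03% of Ly6g-positive cells, with a median of 12859 UMIs per cell, and in 0.630% after thinning to 3000 UMIs, where the Cd3e-positive cells had 0 of 1077. Igkv genes were found in 0.227% of Ly6g-positive cells, within the background. Of the 101 cells with Ighv1-41, 54 had an Ighm UMI, as did 11112 of all 26295 cells without a B marker (42.3%). The source of this signal was not tested.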

How the results depend on the processing

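No paired analysis was possible because the replicate numbers of the samples could not be tied to the library numbers. Stages were set side by side within libraries, without a test. Of 75 values under other settings, 44 stayed within the interval of the value reported, 31 moved and 0 changed sign, and leaving out 1 library at a time moved 9 of 78. The share of B lineage cells with an Ighv UMI was 16.2% with 2 UMIs asked of the B marker, 16.2% without cells that had a marker of another lineage, 3.06% with 2 UMIs per segment and 7.57% when thinned, and for a light chain segment 46.0%, 47.2%, 12.7% and 28.2%, with a median of 41.1% over libraries. A single Ighv gene was found in 97.1% with 2 UMIs and 98.0% when thinned, and a single Igkv gene in 84.3% and 74.3%, with a library median of 66.3%. The lambda share was 15.4% when thinned and 15.6% (15.65) as library median. With 2 UMIs per segment, the most used Ighv gene led 13.9% and the most used Igkv gene 21.97%. The ratio of Ighv levels was 16.4 without cells that had a marker of another lineage, 61.5 (61.55) with 2 UMIs, 15.0 thinned, 16.0 as library median and 14.8 with 2 early genes asked for, and that of Igkv levels 29.2 with 2 UMIs, 9.80 thinned, 11 as library median and 20.4 with 2 early genes. The difference in light chain detection between antibody-secreting and early cells (49.2 percentage points) was 77.0 with 2 UMIs, 58.2 thinned and 62.2 with 2 early genes. The difference in use of the 25 Ighv genes nearest to D (−12.9 points, interval −25.3 to 2.46) was −35.7 with 2 UMIs. The causes were not tested. Leaving out single libraries gave 13.9% to 16.0% for Ighv detection, 40.6% to 45.3% for light chain detection, 62.6% to 65.5% for a single Igkv gene, ratios of 14.3 to 23.3 for Ighv and 11.2 to 14.3 (14.35) for Igkv, and 33.3% to 48.7% for repeated combinations. Alternatives added after seeing the data gave 56.0% (2 UMIs) and 37.9% (thinned) for Ighv14-2 among Ighv-led pro-B type cells. They also gave 8.70 Iglv per 100 lambda constant UMIs without 1 cell, and −1.20 points for the genes nearest to D without cells led by Ighv14-2. The low number of V UMIs per cell and the 54 antibody-secreting cells limit the precision.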
